A study of Rattus norvegicus with 15 samples.

Results

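The 9 genes described here are products or partners of the NF-kB response. They are the feedback regulators Tnfaip3, Tnip1 and Zc3h12a, the survival genes Birc3, Traf1 and Bcl2a1, the tumour necrosis factor-induced gene Tnfaip2, and the C/EBP transcription factor genes Cebpb and Cebpd. Each was found by its symbol on exactly 1 line of the deposited table, so all 9 of 9 were located among 22250 genes, and all 9 passed the filter on low values. They were measured by RNA sequencing in 15 libraries of total RNA from lung of rats labelled wild type, in 3 groups of 5. The SJY group received lipopolysaccharide (LPS, a component of the outer membrane of Gram-negative bacteria) through the trachea and Sang Ju Yin, a Chinese medicine made from several herbs, into the stomach. The ALI (acute lung injury) group received LPS through the trachea, and the control group is labelled normal. No strain, sex, age, dose, time after LPS, instillation of vehicle or formula vehicle is given for any group, nor is it stated that each library is 1 animal. The p-values therefore measure the spread between these libraries, which may be technical in part.

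NF-kB is a family of transcription factors held in the cytoplasm by IkB proteins and released when receptors for LPS, interleukin-1 or tumour necrosis factor activate the IkB kinases. Among the genes it switches on are its own brakes. Tnfaip3 encodes A20, an enzyme that edits ubiquitin chains on signalling proteins, and Tnip1 encodes ABIN-1, a ubiquitin-binding partner of A20. Zc3h12a encodes Regnase-1, an RNase that cuts the messengers of cytokines. Others keep stimulated cells alive, and C/EBP beta and delta act beside NF-kB at cytokine and acute phase genes. In bulk lung, more cells of a type and more RNA per cell cannot be told apart.

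RefSeq promoter sequences of the rat build GRCr8 (250 bases before to 50 after the annotated start) were matched by symbol for 7 of the 9 genes, all but Birc3 and Cebpd. The build differs from that of the expression table, so the sequences serve for description only. Both strands were searched for the kappaB consensus, the DNA element bound by NF-kB, and for TTGCNNAA, the core of the C/EBP element. The kappaB consensus was found in the promoters of 2 of the 7 genes, Tnfaip3 and Tnip1, and in 4.18% of 33469 rat promoters of the same length. TTGCNNAA was found in 0 of the 7 and in 10.6% of all. The promoters of the A20 gene and its partner are shown because they held the matches, and those of Zc3h12a and Cebpb because these genes had the largest rises in ALI among the 7. They lie at chr1:15543930-15544229 (minus strand), chr10:39584912-39585211 (minus strand), chr5:142669936-142670235 (minus strand) and chr3:176816755-176817054 (plus strand). Each is written 5′ to 3′ along its gene, and capitals mark matches to the kappaB consensus.
Tnfaip3: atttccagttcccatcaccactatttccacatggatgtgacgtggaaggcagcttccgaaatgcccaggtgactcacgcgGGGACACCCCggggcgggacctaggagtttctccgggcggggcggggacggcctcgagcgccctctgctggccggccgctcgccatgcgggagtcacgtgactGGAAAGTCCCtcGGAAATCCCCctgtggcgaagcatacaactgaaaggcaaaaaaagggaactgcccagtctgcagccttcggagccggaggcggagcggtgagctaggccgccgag
Tnip1: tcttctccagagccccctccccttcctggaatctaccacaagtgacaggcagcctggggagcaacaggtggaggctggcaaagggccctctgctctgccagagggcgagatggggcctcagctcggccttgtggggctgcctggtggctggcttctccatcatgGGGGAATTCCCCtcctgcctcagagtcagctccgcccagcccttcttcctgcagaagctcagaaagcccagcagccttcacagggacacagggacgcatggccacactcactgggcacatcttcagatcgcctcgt
Zc3h12a: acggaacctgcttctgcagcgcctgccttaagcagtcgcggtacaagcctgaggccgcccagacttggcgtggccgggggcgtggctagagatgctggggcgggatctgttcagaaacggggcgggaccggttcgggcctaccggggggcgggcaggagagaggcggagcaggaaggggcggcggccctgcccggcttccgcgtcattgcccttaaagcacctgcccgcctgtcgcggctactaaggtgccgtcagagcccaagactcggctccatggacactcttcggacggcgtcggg
Cebpb: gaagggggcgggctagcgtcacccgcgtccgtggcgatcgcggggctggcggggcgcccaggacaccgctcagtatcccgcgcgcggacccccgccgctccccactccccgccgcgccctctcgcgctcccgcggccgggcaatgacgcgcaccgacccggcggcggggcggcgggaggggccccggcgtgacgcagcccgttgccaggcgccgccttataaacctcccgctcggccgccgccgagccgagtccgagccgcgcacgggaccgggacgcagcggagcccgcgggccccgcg
The 3 matches of Tnfaip3 began 170, 67 and 55 bases before the start. The first, GGGACACCCC, matches the consensus on the gene's strand. GGAAAGTCCC and GGAAATCCCC, given as printed along the gene, match it when read on the opposite strand. Tnip1 held a palindromic run in which 3 overlapping matches began 86, 85 and 84 bases before the start, the middle of them, GGGAATTCCC, on both strands. The absence of capitals in Zc3h12a and Cebpb says only that these letters are not in this window. The Cebpb window was 81.0% G and C, against a median of 51.7% over all promoters.

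Values are FPKM, fragment counts scaled to gene length and library size, so levels can be compared between genes. Depth is unknown, because FPKM carry no read counts. ALI 1 and SJY 1 stood apart from the other libraries. Mitochondrial genes took 37.7% of the summed FPKM of ALI 1 and 17.1% of SJY 1, against 5.19% to 14.1% elsewhere, and these libraries had the fewest genes at 1 FPKM or more (11865 in ALI 1 and 12305 in SJY 1, against 12833 to 13313 elsewhere). A gene was called changed at a Benjamini-Hochberg adjusted p under 0.05 over 13457 genes in limma, a linear model fitted to log2(FPKM + 1), and fold changes below are on that scale.

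In ALI lungs, 6 of the 9 genes rose against control and 0 fell. The risers were Tnip1, Zc3h12a, Birc3, Tnfaip2, Cebpb and Cebpd, by 1.02 to 2.20 log2 units. Over all genes tested, 17.6% were called in this comparison and 8.02% were called higher. The 9 genes were chosen with earlier results of these data known, so this contrast is a description and not a test. The 9 genes had a median log2 change of 1.13, and all tested genes one of −0.12. Median-of-ratios scaling brought the median of all genes to 0.00010, and the same 6 genes were called. In the SJY lungs 7 of the 9 rose against control, the 6 above and Bcl2a1, and 0 fell, where 32.6% of all genes were called and 14.6% were called higher. Their median log2 change was 1.01, against −0.11 over all genes. The ALI and SJY comparisons share the control libraries, so they are not independent of each other. Traf1 was called in neither, nor was Tnfaip3. Without ALI 1 and SJY 1 the same 7 genes were called in SJY and the same 6 in ALI. Between SJY and ALI, limma called 0 of the 9 at the adjusted threshold, with 1 (Cebpb) at an unadjusted p under 0.05, and 0.00743% of all genes were called. None of the 9 had all SJY libraries above or all below the ALI libraries, which was so in 2.24% and 0.988% of all genes.

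**Figure D1:**
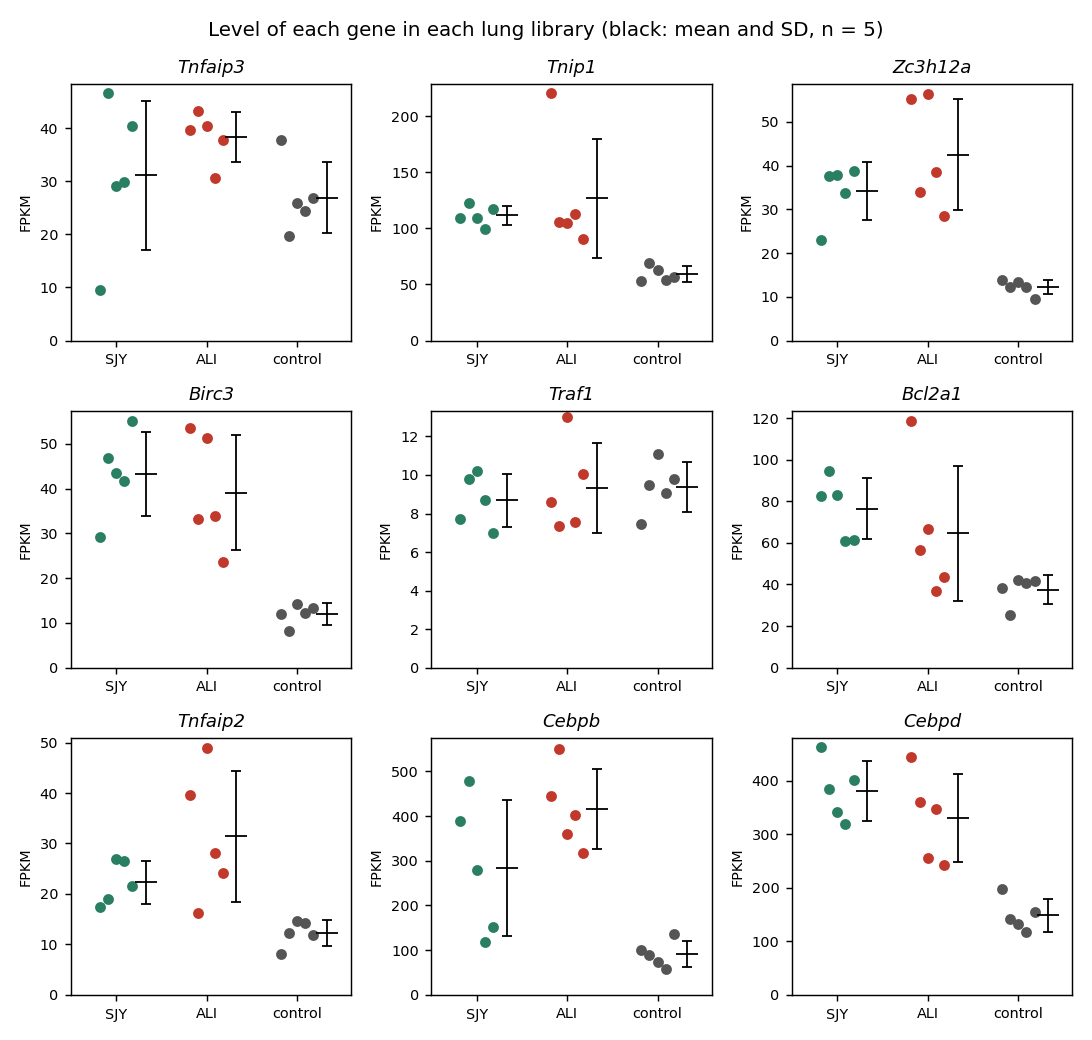
FPKM (vertical axes, from 0) of the 9 genes in each of the 15 lung libraries, with 1 point per library and the mean and SD of each group of 5 in black. Points of Zc3h12a and Birc3 in SJY and ALI all lie above the control points, while those of Traf1 overlap in all groups.

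Of the feedback regulators, Tnip1 and Zc3h12a rose in both LPS groups against control, and Tnfaip3 did not pass the test in either. Tnfaip3 (ENSRNOG00000049517) stood at 9.56, 46.5, 29.2, 29.9 and 40.4 FPKM in SJY 1, 3, 4, 5 and 6, at 39.6, 43.3, 40.4, 30.6 and 37.8 FPKM in ALI 1 to 5, and at 37.8, 19.7, 25.9, 24.3 and 26.8 FPKM in control 4 to 8. All ALI libraries but ALI 4 lay above every control library, though ALI 5 (37.843 FPKM) was all but level with control 4 (37.831 FPKM). SJY 1 lay below all other libraries, and all 3 groups overlapped. The log2 difference between SJY and control was 0.07 ± 0.31 (SE; adjusted p = 0.881), and that between ALI and control 0.52 ± 0.31 (adjusted p = 0.235). Both tests rested in part on SJY 1. Without it the difference between SJY and control was 0.43 (adjusted p = 0.0905), and the ALI difference was called (adjusted p = 0.0455), but not with ALI 1 left out as well (adjusted p = 0.0581). An exact permutation test of the 10 ALI and control libraries alone gave an unadjusted two-sided p = 0.0159.

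Tnip1 (ENSRNOG00000010370) stood at 109, 122, 109, 99.8 and 118 FPKM in SJY, at 221, 106, 105, 113 and 90.4 FPKM in ALI, and at 52.8, 69.4, 62.8, 53.6 and 56.4 FPKM in control, libraries in the order given for Tnfaip3. All SJY and all ALI libraries lay above all control libraries, as did 11.8% of all tested genes in SJY and 6.17% in ALI, and all libraries lay below control in 15.9% of all genes in SJY and 6.73% in ALI. ALI 1 was far above the rest of its group. The gene averaged 112 ± 8.75 FPKM in SJY, 127 ± 53.0 FPKM in ALI and 59.0 ± 7.02 FPKM in control (SD, n = 5 each). It rose by 0.91 ± 0.19 log2 units in SJY (SE; adjusted p = 0.0022) and by 1.02 ± 0.19 in ALI (adjusted p = 0.00192), both against control. Without ALI 1 and SJY 1 it rose by 0.92 in SJY (adjusted p = 2.16e-05) and by 0.80 in ALI (adjusted p = 0.000134).

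Zc3h12a (ENSRNOG00000009131) had the lowest adjusted p of the 9 in ALI. It stood at 22.9, 37.7, 37.9, 33.7 and 38.8 FPKM in SJY, at 55.2, 33.9, 56.4, 38.6 and 28.4 FPKM in ALI, and at 13.8, 12.2, 13.4, 12.3 and 9.54 FPKM in control. The lowest LPS-treated library, SJY 1, was above the highest control library. The rise was 1.4 ± 0.19 log2 units in SJY (SE; adjusted p = 0.000115) and 1.68 ± 0.19 in ALI (adjusted p = 4.39e-05), both against control. ALI 1 and ALI 3 were the highest libraries.

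Among the survival genes, Birc3 rose most. Birc3 (ENSRNOG00000005731) encodes cIAP2, a ubiquitin ligase of tumour necrosis factor receptor complexes. It stood at 29.3, 46.8, 43.5, 41.8 and 55.1 FPKM in SJY, at 53.5, 33.1, 51.2, 34.0 and 23.7 FPKM in ALI, and at 11.9, 8.11, 14.3, 12.3 and 13.4 FPKM in control. Every LPS-treated library lay above every control library. The rise was 1.76 ± 0.22 log2 units in SJY (SE; adjusted p = 4.2e-05) and 1.59 ± 0.22 in ALI (adjusted p = 0.000205), both against control.

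Bcl2a1 (ENSRNOG00000047606) encodes a BCL-2 family protein that protects leukocytes from apoptosis. Near-identical copies of it are known in mouse, and reads shared with any rat copy could be split, so its values are uncertain. It stood at 82.6, 94.4, 82.8, 61.1 and 61.5 FPKM in SJY, at 119, 56.7, 66.6, 37.1 and 43.7 FPKM in ALI, and at 38.4, 25.3, 42.1, 40.6 and 41.5 FPKM in control. All SJY libraries lay above all control libraries, whereas ALI 4 fell inside the control range. It rose in SJY by 1.01 ± 0.25 log2 units against control (SE; adjusted p = 0.00746). The ALI difference of 0.67 ± 0.25 missed the threshold (adjusted p = 0.0767), but was called without ALI 4 (0.83, adjusted p = 0.0296) or without ALI 5 (0.77, adjusted p = 0.048), and was 0.42 without ALI 1 (adjusted p = 0.144). The direct difference between SJY and ALI was 0.34 log2 units (95% interval −0.19 to 0.88, adjusted p = 0.64), so the SJY and ALI responses of Bcl2a1 were not shown to differ.

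Traf1 (ENSRNOG00000048914) encodes an adaptor that binds TRAF2 and the cIAP proteins. It stood at 7.73, 9.77, 10.2, 8.70 and 6.96 FPKM in SJY, at 8.6, 7.35, 13.03, 7.55 and 10.04 FPKM in ALI, and at 7.46, 9.49, 11.1, 9.04 and 9.81 FPKM in control. The 3 groups overlapped, with the lowest library in SJY and the highest in ALI. The log2 difference from control was −0.10 in SJY (95% interval −0.44 to 0.23, adjusted p = 0.65) and −0.03 in ALI (95% interval −0.36 to 0.31, adjusted p = 0.916). These intervals exclude a rise of the size seen for Birc3, and the sign of both differences turned with median-of-ratios scaling.

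Tnfaip2 (ENSRNOG00000010165) encodes a protein that promotes membrane protrusions and tunnelling nanotubes. It stood at 17.5, 19.0, 26.9, 26.4 and 21.6 FPKM in SJY, at 39.7, 16.2, 48.9, 28.1 and 24.1 FPKM in ALI, and at 8.19, 12.3, 14.6, 14.3 and 11.9 FPKM in control. Every LPS-treated library was above every control library, and ALI had the widest spread (12.9 FPKM SD, against 4.27 in SJY and 2.57 in control). The rise was 0.82 ± 0.24 log2 units in SJY (SE; adjusted p = 0.0183) and 1.22 ± 0.24 in ALI (adjusted p = 0.00347), both against control.

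Cebpb (ENSRNOG00000057347), the gene of C/EBP beta, had the largest change of the 9 genes in ALI. It stood at 389, 478, 280.2, 119 and 152 FPKM in SJY, at 445, 550.2, 360.1, 402 and 317 FPKM in ALI, and at 101, 88.7, 74.4, 57.0 and 136 FPKM in control. All ALI libraries exceeded all control libraries. In SJY the values were spread over the gap between them: SJY 5 lay inside the control range, and SJY 1 and SJY 3 inside the ALI range. Cebpb rose by 1.49 ± 0.33 log2 units in SJY (SE; adjusted p = 0.00389) and by 2.20 ± 0.33 in ALI (adjusted p = 0.000483), both against control. SJY lay 0.71 log2 units below ALI (95% interval −1.42 to −0.0040, unadjusted p = 0.0489). This did not pass adjustment (adjusted p = 0.419), although 3 of the 5 SJY libraries were below every ALI library. The difference was −0.45 without SJY 5 and −0.95 without SJY 3.

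Cebpd (ENSRNOG00000050869), the gene of C/EBP delta, stood at 462, 384, 340.4, 318 and 401 FPKM in SJY, at 443, 359, 255, 347 and 243 FPKM in ALI, and at 198, 141, 132, 118 and 154 FPKM in control. Every LPS-treated library lay above every control library. The rise was 1.36 ± 0.18 log2 units in SJY (SE; adjusted p = 6.61e-05) and 1.13 ± 0.18 in ALI (adjusted p = 0.000614), both against control.

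The relation of Cebpb to Cebpd within a library was looked at after these values were seen, and is given without a test. The ratio of Cebpb FPKM to Cebpd FPKM was 0.842, 1.24, 0.823, 0.374 and 0.378 in SJY 1, 3, 4, 5 and 6. It was 1.01, 1.53, 1.41, 1.16 and 1.31 in ALI 1 to 5, and 0.509, 0.630, 0.562, 0.483 and 0.880 in control 4 to 8. Cebpb exceeded Cebpd in 1 of 5 SJY, 5 of 5 ALI and 0 of 5 control libraries. SJY 5 and SJY 6, with the lowest Cebpb of their group, had ratios below every control library.

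**Figure D2:**
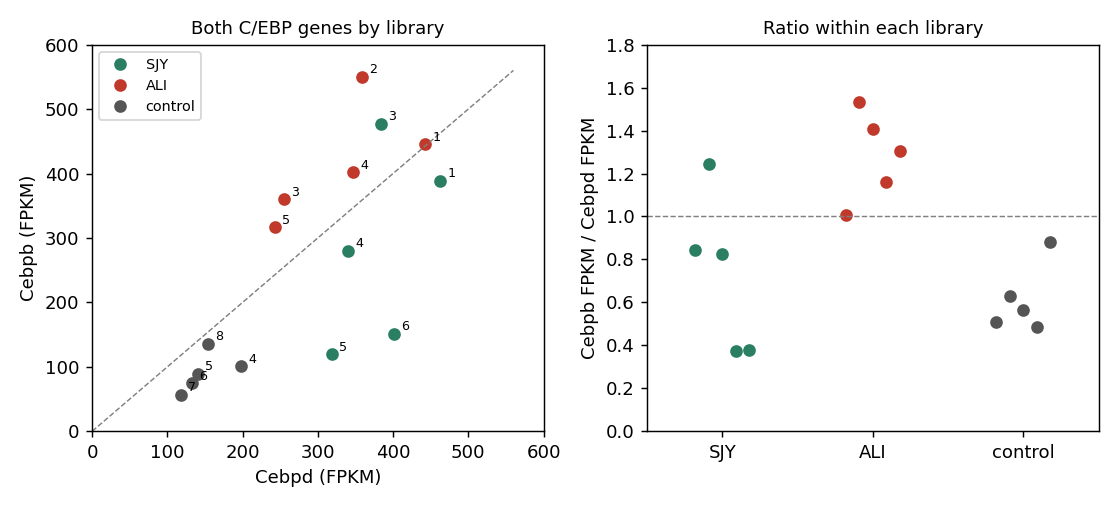
Left, Cebpb against Cebpd (both FPKM) in each library, labelled by its number, with a dashed line of equal level; right, the ratio of Cebpb to Cebpd in each library. All 5 ALI libraries have a ratio above 1 and all 5 control libraries one below 1, and the SJY libraries run from 0.374 to 1.24.

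The order of the levels differed between groups. In SJY it ran from Cebpd (381 FPKM), Cebpb (283.5), Tnip1 (112), Bcl2a1 (76.5), Birc3 (43.3), Zc3h12a (34.2), Tnfaip3 (31.1) and Tnfaip2 (22.3) to Traf1 (8.68), all group means. In ALI Cebpb (415 FPKM) stood before Cebpd (329) and Zc3h12a (42.5) before Birc3 (39.1). In control, Tnfaip3 (26.9 FPKM) stood before Tnfaip2, Zc3h12a and Birc3, which lay together at 12.2, 12.2 and 11.99 FPKM. Of neighbours in these orders, the ranges did not overlap between Tnip1 and Bcl2a1, Bcl2a1 and Birc3, or Tnfaip2 and Traf1 in SJY. They did not overlap between Cebpd and Tnip1 or Tnfaip2 and Traf1 in ALI, or between Tnip1 and Bcl2a1 or Tnfaip3 and Tnfaip2 in control. All other neighbours overlapped.

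**Figure D3:**
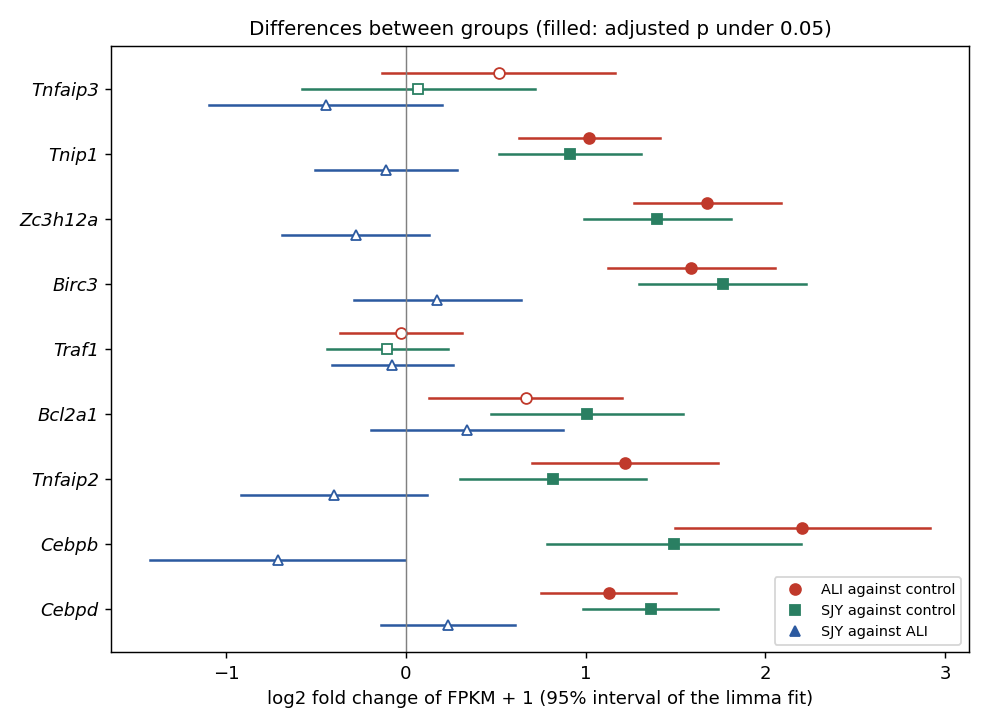
Log2 fold change of FPKM + 1 (horizontal axis) of each gene in the 3 comparisons, with 95% intervals of the limma fit; filled symbols passed an adjusted p under 0.05. The filled symbols all lie right of 0, and no comparison of SJY with ALI is filled.

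Between SJY and ALI the remaining genes had intervals that reached across 0. Tnfaip3 differed by −0.45 log2 units (95% interval −1.10 to 0.20), Tnfaip2 by −0.40 (−0.92 to 0.12) and Zc3h12a by −0.28 (−0.69 to 0.13). None of these 3 differences was called. Tnip1 differed by −0.11 (−0.50 to 0.29) and Traf1 by −0.08 (−0.41 to 0.26). Birc3 differed by 0.18 (−0.29 to 0.64) and Cebpd by 0.23 (−0.14 to 0.61). Without SJY 1 the difference of Tnfaip3 was −0.09, and without ALI 1 that of Tnip1 was 0.11. A missed threshold does not show that the groups were alike.

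The other genes of the pathway were taken from 8 lists holding 90 genes, of which 84 were found and 81 were tested. Against control, 28 rose and 9 fell in SJY (34.6% and 11.1% of those tested), and 18 rose and 3 fell in ALI (22.2% and 3.70%). Over all genes 14.6% were called higher and 18.1% lower in SJY, and 8.02% and 9.56% in ALI. The counts of each list below stand beside these shares. The lists were chosen with earlier results of these data known, so the shares are a description and not a test. Between SJY and ALI limma called 0 of the 81, with 7 at an unadjusted p under 0.05.

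Of 14 NF-kB proteins, IkB proteins and kinases, 8 rose and 1 fell in SJY, and 6 rose and 0 fell in ALI. The largest rises were those of Relb (1.39 log2 units in SJY and 1.4 in ALI), Bcl3 (1.38 and 1.37 in the same order) and Nfkb2 (1.26 and 1.01). They encode a non-canonical subunit, a nuclear IkB protein and the precursor of p52. Relb averaged 25.5 ± 4.71 FPKM in SJY, 25.7 ± 4.16 FPKM in ALI and 9.12 ± 1.72 FPKM in control (SD, n = 5 each). Nfkbia, whose product IkB alpha is another feedback inhibitor of NF-kB, rose by 0.60 in SJY (adjusted p = 0.0229) and differed by 0.34 in ALI (adjusted p = 0.202). Ikbkg, the gene of the regulatory kinase subunit NEMO, fell by 0.61 in SJY (adjusted p = 0.0268).

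Of 11 tested partners of A20 and other ubiquitin editors, 1 rose and 3 fell in SJY, and 1 rose and 1 fell in ALI. Tnip3, the ABIN-3 gene, rose by 0.84 log2 units in SJY and 1.15 in ALI. It was low, at 1.74 ± 0.692 FPKM in SJY, 2.37 ± 0.686 FPKM in ALI and 0.513 ± 0.301 FPKM in control (SD, n = 5 each). Tnip3 stayed under 1 FPKM in every control library, so it passed the filter only through LPS-treated libraries. The deubiquitinase gene Otud7b fell by 0.61 in SJY and 0.50 in ALI. In SJY the E3 ligase gene Itch fell by 0.93 and Spata2, an adaptor for the deubiquitinase CYLD, by 1.07.

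Of 14 tested TRAF and receptor adaptor genes, 5 rose and 1 fell in SJY, and 2 rose and 0 fell in ALI. Irak3, an inhibitory relative of the Toll-like receptor kinases, rose by 1.47 log2 units in SJY and 1.58 in ALI. The adaptor gene Myd88 rose by 0.93 in SJY and 0.63 in ALI. In SJY the kinase gene Irak4 rose by 0.39, Traf2, whose product TRAF1 binds, rose by 0.30, and the ligase gene Traf6 fell by 0.65.

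Of 9 tested Regnase relatives and RNA decay genes, 1 rose in SJY (Arid5a, which stabilises cytokine messengers, by 0.88 log2 units) and 1 fell (Zc3h12c, by 0.90). In ALI limma called 0 of the 9, with 3 at an unadjusted p under 0.05. The most abundant were Zfp36, whose product tristetraprolin destabilises cytokine messengers, and its relative Zfp36l1. Zfp36 averaged 329 ± 26.6 FPKM in SJY, 279 ± 74.5 FPKM in ALI and 362 ± 82.4 FPKM in control (SD, n = 5 each), and Zfp36l1 averaged 135 ± 11.6, 140.2 ± 23.4 and 131 ± 22.5 FPKM in the same order. Of 8 tested messengers listed as Regnase-1 targets, 5 rose and 0 fell in SJY, as in ALI. Il6, among these 5, stayed under 1 FPKM in every control library, so it passed the filter only through LPS-treated libraries. Its ALI values ran from 0.633 to 35.64 FPKM. Il12b, listed but not tested, went the other way, with means of 0.152 FPKM in SJY, 0.138 in ALI and 0.826 in control. Cxcl1, a neutrophil attractant, rose by 2.88 log2 units in SJY and 3.21 in ALI. Ccl2, a monocyte attractant, rose by 3.19 in SJY and 2.998 in ALI, and the cytokine gene Il1b by 2.69 in SJY and 2.27 in ALI. The other 3 tested, Icos, Tnfrsf4 and Tfrc, did not pass the test in either group.

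Apoptosis genes were called in both directions, as were all genes tested (14.6% higher and 18.1% lower in SJY, 8.02% and 9.56% in ALI). Of 7 tested inhibitors of apoptosis, 1 rose and 2 fell in SJY, and 1 rose and 1 fell in ALI. Birc5, the survivin gene and also a mitosis gene, rose by 1.19 log2 units in SJY and 1.21 in ALI. Bcl2l2 fell by 0.51 in SJY and 0.47 in ALI, and the caspase inhibitor gene Xiap fell by 1.33 in SJY. Birc2, the close relative of Birc3 that encodes cIAP1, was not called and differed from control by −0.03 in SJY and 0.06 in ALI. Of 13 tested BH3-only and effector genes, 5 rose and 1 fell in SJY, and 3 rose and 1 fell in ALI. Bid rose by 1.44 log2 units in SJY and 1.28 in ALI, and Pmaip1 by 1.17 in SJY and 1.32 in ALI. Bik rose by 0.74 in SJY (adjusted p = 0.0214). Bmf fell by 1.495 in SJY and 0.86 in ALI.

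Of 5 other C/EBP family genes, 2 rose and 0 fell in SJY, while limma called 0 in ALI, with 1 at an unadjusted p under 0.05. The most abundant were Cebpa, the gene of C/EBP alpha, at 33.9 ± 2.19 FPKM in SJY, 36.4 ± 7.89 FPKM in ALI and 43.7 ± 5.90 FPKM in control, and Cebpg at 35.8 ± 2.66, 34.0 ± 1.88 and 33.8 ± 3.60 FPKM in the same order (SD, n = 5 each). Cebpe, a granulocyte C/EBP gene, rose by 1.16 log2 units in SJY. It stood at 3.36 ± 0.964 FPKM in SJY, 2.08 ± 1.08 FPKM in ALI and 1.00 ± 0.622 FPKM in control (SD, n = 5 each). Ddit3, the gene of the stress-induced relative CHOP, rose by 0.70 in SJY. It stood at 40.8 ± 6.94 FPKM in SJY, 24.9 ± 1.998 FPKM in ALI and 24.8 ± 3.996 FPKM in control. Every SJY library lay above every ALI library for Ddit3, as was so in 2.24% of all tested genes. The difference between SJY and ALI was 0.68 log2 units (adjusted p = 0.111).

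**Figure D4:**
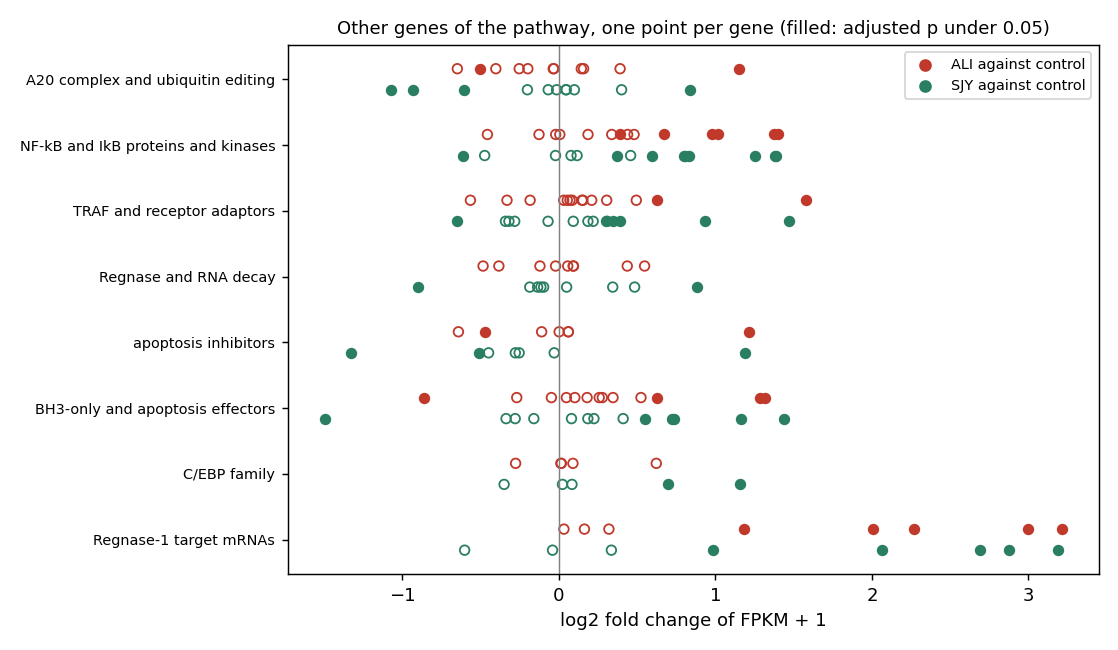
Log2 fold change of FPKM + 1 (horizontal axis) of the 81 tested genes of the 8 pathway lists, with 1 point per gene and comparison; filled points passed an adjusted p under 0.05. The points of messengers targeted by Regnase-1 reach 3.21 in ALI, and those of the A20 list lie on both sides of 0.

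Markers of several cell types differed between the LPS groups and control. Over all genes, 14.6% were called higher and 18.1% lower in SJY, and 8.02% and 9.56% in ALI. Of 14 neutrophil markers, 11 were tested and all 11 rose in SJY and in ALI against control. Their summed level over all 14 was 8406.5 to 14869 FPKM in SJY, 2241 to 23343 FPKM in ALI and 154 to 250 FPKM in control. Most of this sum came from S100a9, Lcn2 and S100a8, which averaged 3170, 1936 and 1661 FPKM over all libraries. The granule genes Mpo and Ltf were under 1 FPKM in every library. Ngp, also not tested, went the other way, with means of 0.534 FPKM in SJY, 0.510 in ALI and 2.189 in control. Elane stayed under 1 FPKM in every control library, so it passed the filter only through LPS-treated libraries. Of 7 monocyte and recruited macrophage markers, 6 rose in both comparisons, and their sum was 381 to 647 FPKM in SJY, 255 to 380 FPKM in ALI and 128 to 192 FPKM in control. Of 9 alveolar type I markers, 7 fell in SJY and 9 in ALI, with a sum of 1602 to 2563 FPKM in SJY, 678 to 2228 FPKM in ALI and 3065.5 to 4415 FPKM in control. Of 8 alveolar type II markers, which check the labelled tissue, 3 fell in SJY and 2 in ALI, and they summed to 17784 to 20283 FPKM in SJY, 6106 to 21098 FPKM in ALI and 16531 to 25266 FPKM in control. ALI 1 alone set the ALI maximum for neutrophils and the ALI minimum for both alveolar types. The other 4 ALI libraries reached 7313 FPKM for neutrophils, and had at least 1313 FPKM for type I and 14008 FPKM for type II. Of 6 fibroblast markers, 3 rose in both comparisons, with sums of 600.4 to 756 FPKM in SJY, 394 to 869 FPKM in ALI and 300.2 to 411 FPKM in control. ALI 1 also set this ALI minimum, and the other ALI libraries had at least 708 FPKM for fibroblasts. Of 4 tested airway epithelium markers, 0 fell in SJY and 1 in ALI, and the 5 found summed to 7739 to 13304 FPKM in SJY, 5270.3 to 8829 FPKM in ALI and 10680 to 16727 FPKM in control. Of T and NK cell markers, 3 of 10 rose in SJY, and of B cell markers 1 of 7, where 14.6% of all genes were called higher. In ALI limma called 0 of either, with 1 of each at an unadjusted p under 0.05. The T and NK cell marker Gzma was higher in SJY than in ALI by 1.51 log2 units (limma adjusted p = 0.0437). It was the 1 gene of 13457 called in that comparison. Of 8 alveolar macrophage markers, 3 rose and 1 fell in SJY, and 2 rose and 1 fell in ALI. Marco, among the risers in SJY, was at 0 FPKM in every control library, so it passed the filter only through LPS-treated libraries. Of 7 tested endothelium markers, 1 rose and 1 fell in each comparison with control. The part of cell composition in the changes of the 9 genes was not tested. Within ALI, the library with the highest neutrophil sum, ALI 1, had the highest Bcl2a1, Birc3, Cebpd and Tnip1, while Zc3h12a and Tnfaip2 were highest in ALI 3 and Cebpb and Tnfaip3 in ALI 2. Within SJY, the library with the highest sum, SJY 1 (14869 FPKM), had the lowest Birc3, Zc3h12a, Tnfaip3 and Tnfaip2 and the highest Cebpd.

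**Figure D5:**
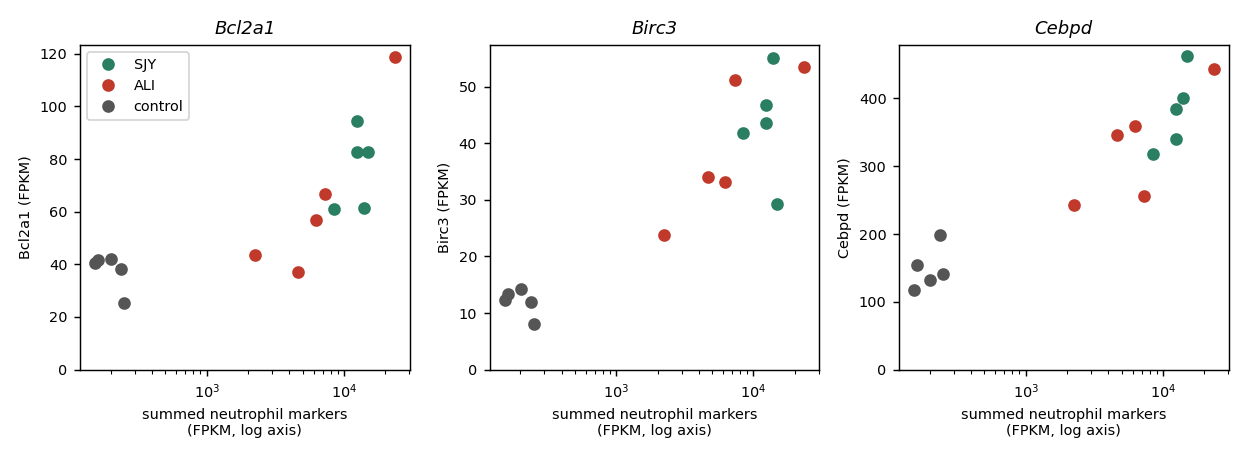
FPKM of Bcl2a1, Birc3 and Cebpd against the summed FPKM of 14 neutrophil markers (logarithmic axis) in each of the 15 libraries. Most of that sum came from S100a9, Lcn2 and S100a8. The control libraries lie between 154 and 250 FPKM on the horizontal axis, and ALI 1 lies farthest right at 23343 FPKM.

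The likeness of the 9 genes to each other was uneven. Over the 15 libraries, which share 3 groups, the Spearman correlation of FPKM between pairs had a median of 0.629 over 36 pairs. It was highest for Zc3h12a and Birc3 (0.914) and lowest for Traf1 and Cebpd (−0.479). With group means removed on the log2 scale, the Pearson correlation of Zc3h12a and Birc3 was 0.801, while that of Zc3h12a and Cebpb was −0.205 and the median over pairs 0.251. Among 9900 other genes with a mean of at least 5 FPKM, Birc3 was most like Csf2rb, the common beta chain of the GM-CSF and IL-3 receptors (Spearman 0.982; 0.879 as Pearson within groups), and Relb (0.971; 0.897). Zc3h12a was most like Cyp1b1 (0.968; 0.654) and Cxcl1 (0.961; 0.828), and Cebpd most like Ybx1 (0.975; 0.937) and Prok2 (0.968; 0.872). Prok2 encodes a secreted chemoattractant and Ybx1 an RNA-binding protein. Tnip1 was most like Pkm, a glycolysis gene (0.957; 0.844), and Chst12 (0.946; 0.489). Tnfaip2 was most like Pitpna (0.946; 0.672) and Pon1 (0.932; 0.690), and Bcl2a1 most like Cst7 (0.932; 0.865) and Cotl1 (0.929; 0.805). The best matches had lower correlations for Tnfaip3 (Tars1 at 0.864 and Yju2 at 0.843), Traf1 (Tspan32 at 0.839 and Orai2 at 0.836) and Cebpb (Tnfaip8l1 and Sf3b6, both at 0.836). These correlations were picked as the highest of many and describe these libraries only.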

How the data were processed

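RNA was measured in 15 rat lung libraries, 5 in each of SJY, ALI and control. The deposited table holds FPKM per gene, which the authors made. Per the submitters' processing notes, cutadapt, HISAT2, StringTie and the build Rnor_6.0 were used. Versions and strand are not given in the sources used here, so reads of overlapping or antisense genes cannot be told apart. FPKM carry no read counts, so no counting error can be given.

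The 9 genes were matched by symbol. Genes with at least 1 FPKM in at least 5 libraries (13457 of 22250) were fitted as log2(FPKM + 1) in limma 3.58.1 (R 4.3.3), with all 3 groups in 1 fit, trend and robust settings and two-sided tests. P-values were adjusted by Benjamini-Hochberg over all tested genes. The fit was tested on simulated data. Exact permutation tests were two-sided, with a smallest p of 0.00794 over 252 splits of 5 against 5. Named genes were the 9 members, up to 3 called genes per list and direction with the largest changes (or the 2 most abundant, in lists without a call), and the 2 genes most like each member by Spearman correlation. Nfkbia, Birc2, Traf2, Il6, Il12b, Icos, Tnfrsf4, Tfrc, Mpo, Ltf, Ngp, Elane, S100a8, S100a9, Lcn2, Marco and Gzma fall outside this rule and were named after their values were seen. The members and all lists were chosen with earlier results of these data known. Replicate numbers come from library names and were not used as pairs. Alternatives were other scaling, pseudocount, filters, model settings, a replicate block and each library left out. Symbols that did not match were not analysed here. A called list gene that the rule selects is not reported here.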

Additional observations from a re-analysis of the deposited data

Results flagged for a closer look

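In 2 of the 27 gene and group combinations checked, 1 library stood far from the other 4 of its group, and chance alone gives about 1 in 20. Tnip1 stood at 221 FPKM in ALI 1, against 90.4 to 113 FPKM in the other ALI libraries, a gap that made up 0.829 of the group's range. ALI 1 was also the library with the largest mitochondrial share (37.7%) and the highest sum of neutrophil markers (23343 FPKM), and the part of either in its Tnip1 level was not tested. Without ALI 1, Tnip1 still rose in ALI against control, by 0.80 log2 units (limma adjusted p = 8.76e-05). Bcl2a1 stood at 25.3 FPKM in control 5, against 38.4 to 42.1 FPKM in the other control libraries, a gap of 0.779 of the range.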

How the results depend on the processing

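The depth of the libraries is unknown, and 5 libraries a group limit what SJY against ALI can show. The count of the 9 genes called was 6 to 7 in ALI against control, 0 to 0 in SJY against ALI and 7 to 7 in SJY against control when 1 library was left out. Without both ALI 1 and SJY 1, chosen after seeing the data, the same 6 and 7 genes were called. A replicate block, though same-numbered libraries did not deviate together (r of −0.389 to 0.302), left 3 of the 9 in ALI against control, losing Tnip1 (0.89 log2 units, adjusted p = 0.128), Tnfaip2 (1.503, 0.058) and Cebpd (0.88, 0.0595). It left 4 in SJY against control, losing Tnip1 (0.73 log2 units, adjusted p = 0.0967), Bcl2a1 (0.83, 0.0957) and Tnfaip2 (0.86, 0.107).

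Over all genes, ALI against control called 2366, and 1332 with only its own groups fitted, 3959 with array weights, 313 with the replicate block and 1556 to 2897 with 1 library left out. SJY against ALI called 1, 1 with the replicate block, and 0 with median-of-ratios scaling, pseudocount 0.1, no filter on low values, no trend and robust settings, or only its own groups. It called 478 with array weights, 62 without ALI 1 and SJY 1, and 0 to 181 with 1 library left out, the highest without ALI 1. SJY against control called 4390, and 7654 with array weights, 1142 with the replicate block and 3359 to 5956 with 1 library left out. The causes were not tested. Cebpb in SJY against ALI was −0.44 with the replicate block.

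Signs turned only among differences that were not called. Traf1 in ALI against control was 0.11 with median-of-ratios scaling, 0.042 without ALI 2, 0.034 without ALI 4 and 0.030 without control 6, within −0.14 to 0.042 over single libraries left out. In SJY against ALI, Tnip1 was 0.11 with array weights, 0.12 without ALI 1 and SJY 1, and −0.21 to 0.11 with 1 library left out, the highest without ALI 1. Zc3h12a was 0.0080 with array weights, and Traf1 was −0.15 to 0.042 with 1 library left out, the highest without ALI 3. In SJY against control, Tnfaip3 was −0.11 without SJY 3, −0.063 without SJY 6 and −0.030 without control 5, up to 0.43 without SJY 1, and Traf1 was 0.0042 with median-of-ratios scaling. Of 225 values for single genes in each comparison, direction and call stayed in 214 in ALI against control, 220 in SJY against ALI and 218 in SJY against control. Many of these values could not turn in sign. Other filters, no trend and robust settings, only the 2 groups fitted, or a library of the third group left out keep the estimate unchanged. The 225 also hold the exact permutation tests, which reuse the main estimate and were judged by their unadjusted p. The counts therefore overstate how far the results were tried.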
